A study of Mus musculus with 28 samples.

Results

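The prolactin receptor Prlr and 7 genes that act directly below it were followed through sorted cells of the mouse mammary gland: the kinase gene Jak2, the transcription factor genes Stat5a and Stat5b, and the inhibitor genes Cish, Socs1, Socs2 and Socs3. They were taken by symbol through their Ensembl identifiers, and all 8 were found among the 50600 gene rows of the count table. The rule uses no measured value. All 8 passed the low-count filter and were tested in every comparison.

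Prolactin binds its receptor on the luminal cells of the mammary epithelium, and the receptor-bound kinase JAK2 then phosphorylates STAT5A and STAT5B, which enter the nucleus and switch on milk protein and survival genes. Progesterone and prolactin together drive the side branching and alveolar growth of the gland in pregnancy, and Stat5a is the paralogue most closely tied to lactation. CISH and the SOCS proteins are made in response to STAT signalling and feed back on it, so their genes are widely used as readouts of an active pathway.

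RNA-seq was done on 28 libraries from 7 adult female C57BL/6 mice that carried PdgfrαCre and the R26mTmG reporter. The paper describes the adult mice of this model as being at a comparable estrous stage. In this reporter, cells that have expressed the Cre, or descend from cells that did, are eGFP+ (GFP+), and all other cells keep tdTomato. The Cre is driven by Pdgfrα regulatory sequence and is not inducible, so GFP marks a history of its expression and not present expression. Of the mice, 4 were untreated and 3 had received estrogen and progesterone (E+P), and each mouse gave GFP+ and tdTomato+ cells of a luminal and a stromal gate, set by CD49f and EpCAM after cells positive for CD31, CD45 or Ter119 were removed. These 8 groups of lineage, subset and treatment held 4 untreated or 3 E+P libraries each, with 1 library per mouse. E+P and untreated libraries always came from different mice, so anything else that differed between those mice cannot be told apart from the hormones.

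Total counts ran from 8623383 to 24583803 per library, and 3 counts corresponded to 0.116 to 0.302 CPM (counts after each library is scaled to 1000000 counts, with TMM factors). The summed CPM of 7 luminal markers was between 3748 and 6888 in the 14 luminal libraries and between 2.88 and 447 in the 14 stromal ones. Within the luminal gate, 6 hormone-sensing markers summed to 939 to 2283 CPM in tdTomato+ and 79.0 to 740 CPM in GFP+ libraries, whereas 6 progenitor markers summed to 2369 to 3806 CPM in GFP+ and 242 to 1156 CPM in tdTomato+ libraries. GFP+ stroma carried fibroblast markers (30473 to 60021 CPM over 6 genes). The tdTomato+ stroma was mixed, with 7 pericyte and smooth muscle markers at 5935 to 9352 CPM and 6 skeletal muscle markers at 1926 to 17203 CPM. In sorted bulk samples, fewer cells of a type and less RNA of a gene per cell cannot be told apart.

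STAT dimers bind the palindrome TTCNNNGAA, which reads the same on both strands and therefore needs 1 search. It was searched for in RefSeq windows (GRCm38.p6) of 250 bases before to 50 bases after each annotated start. Of 32851 windows, 2726 (8.30%) held at least 1 match and 150 (0.457%) held 2 or more. The 8 genes had 11 windows for 7 of them, and Socs2 had none. A match was found in 3 windows, of Cish, Socs3 and Prlr, and the Cish window was the one with 2. The 30 bases around these matches are shown because they bear on the inhibitors and the receptor described here. Capitals mark the matches, and positions count from the annotated start, with the first transcribed base as 1.
Cish, matches starting at 1 and 12, chr9:107296654-107296683 (+): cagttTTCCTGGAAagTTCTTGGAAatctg
Socs3, match starting at -154, chr11:117969501-117969530 (-): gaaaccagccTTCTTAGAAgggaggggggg
Prlr, match starting at -110 from its second annotated start, chr15:10223786-10223815 (+): gcaaaatgagTTCTAGGAAtaagggatatc

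Neither the full estrogen receptor palindrome GGTCANNNTGACC (0.07% of all windows) nor the progesterone receptor palindrome GNACANNNTGTNC (0.475%) occurred in the 11 windows. Both were searched as written, and each is its own reverse complement. A match or its absence describes these letters in these windows only.

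Stat5a and Stat5b are neighbours on chromosome 11 (GRCm38, 100859351 to 100885169 on the plus strand and 100780731 to 100850724 on the minus strand), and their coding sequences were identical at 2080 of 2291 aligned bases (90.8%). The longest identical run was 324 coding bases, spread over 3 exons of each gene. Its first 75 bases, the length of 1 sequencing read, are the following in the transcript sense; they lie at chr11:100874023-100874097 in Stat5a and at chr11:100798627-100798701 in Stat5b.
Stat5a and Stat5b, shared exon stretch: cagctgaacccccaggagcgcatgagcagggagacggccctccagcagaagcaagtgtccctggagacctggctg
A read that falls wholly inside the run cannot on its own be assigned to 1 of the genes, although the other read of its pair may lie outside the run. Of all 75-base stretches in the annotated transcripts, 387 were shared, which was 5.12% of the Stat5a and 6.99% of the Stat5b stretches, so most positions told the genes apart. The other overlaps were small. Stat5a meets Stat3 tail to tail on the opposite strand, and the strand setting of the authors' counting is not given in the sources used here. The 2 genes antisense to Cish had at most 12 counts in any library, and Gm21973, which overlaps Prlr on the same strand, had 0 counts in all 28. These counts do not show whether reads in the shared parts were counted for Cish or Prlr.

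**Figure D1:**
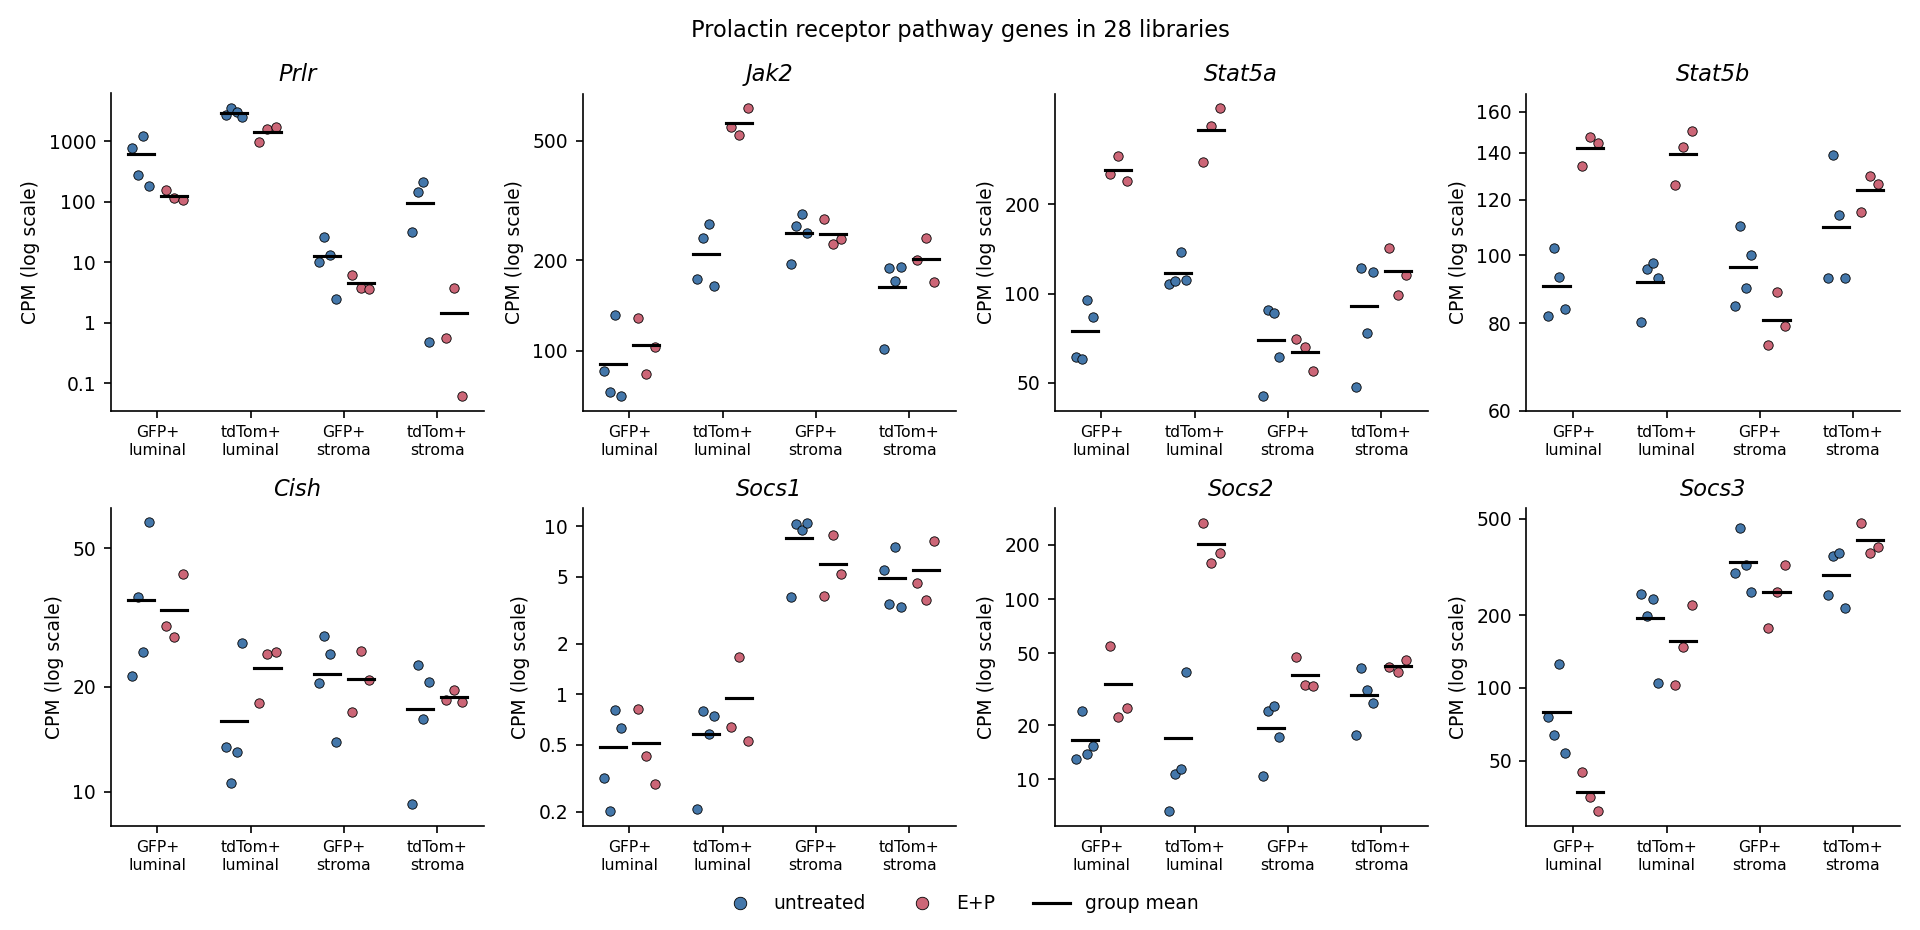
CPM of each of the 8 genes (log axis, a different range in each panel) in the 4 sorted populations, with 1 point per library, blue for untreated (n = 4) and red for E+P (n = 3), and a black line at the group mean. Stat5a and Stat5b were higher in every E+P than in every untreated luminal library, Jak2 and Socs2 did so in tdTomato+ luminal cells, and Prlr was lower after E+P in both luminal subsets without overlap.

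Prlr spanned the widest range of the 8 genes and was, in every group, a gene of the luminal gate. Untreated tdTomato+ luminal cells had 2706, 3558, 3025 and 2479 CPM in mice 1 to 4. After E+P the 3 libraries had 960, 1602 and 1705 CPM. Untreated GFP+ luminal cells had 769, 276, 1217 and 182 CPM, and those of E+P mice had 155, 117 and 105 CPM. Within both subsets every E+P library was lower than every untreated one, and the untreated GFP+ libraries were spread the most, with mice 1 and 3 far above mice 2 and 4.

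In order of group means, untreated tdTomato+ luminal cells (2942 CPM) were followed by tdTomato+ luminal cells after E+P (1422), untreated GFP+ luminal cells (611) and GFP+ luminal cells after E+P (126). The second and the third of these overlapped, as 1217 CPM in an untreated GFP+ library exceeded 960 CPM in an E+P tdTomato+ library. The 4 stromal groups came last, with means of 97.0 CPM in untreated tdTomato+ stroma, 12.9 in untreated GFP+ stroma, 4.52 in GFP+ stroma after E+P and 1.46 in tdTomato+ stroma after E+P, and each of these overlapped its neighbours in the order. The highest stromal libraries also overlapped GFP+ luminal cells after E+P.

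Averaged over subsets and treatments, Prlr was 78.4-fold higher in luminal cells than in stroma (log2 fold change 6.29 ± 0.62 SE, adjusted p = 4.62e-09, edgeR quasi-likelihood test), and was higher in the luminal library in all 7 mice for both subsets. It was 1 of 4 genes of the 8 that differed between the lineages, 2 higher and 2 lower, against 63.5% of all 19569 genes tested. Between luminal subsets, Prlr was 7.51-fold lower in GFP+ than in tdTomato+ cells (log2 fold change -2.91 ± 0.38, adjusted p = 7.02e-05) and lower in 7 of 7 mice. There it was 1 of 4 genes, all lower in GFP+ cells, against 34.7% of 16538 genes called in either direction (2601 higher and 3144 lower).

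The drop in Prlr after E+P was large but did not pass the threshold of adjusted p under 0.01 in either luminal subset. In GFP+ cells the log2 fold change was -2.28 ± 0.54 (adjusted p = 0.0158, between 1.47e-05 and 0.0897 over the alternatives). The value passed with DESeq2 (adjusted p = 1.47e-05) and without untreated mouse 4 (0.00532). In tdTomato+ cells it was -1.02 ± 0.52 (adjusted p = 0.164, between 0.00741 and 0.404 over the alternatives), and passed only in a fit of these 2 groups alone. The 2 changes differed by -1.26 ± 0.71 on the log2 scale (adjusted p = 0.331), with a 95% interval of -2.66 to 0.14, so neither a like nor an unlike response was shown.

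Prlr was set beside 2 other hormone receptor genes in the luminal libraries, and kept a like proportion to Esr1 but not to Pgr. Esr1, the estrogen receptor gene, had 287, 389, 221 and 225 CPM in untreated and 74.6, 132 and 138.4 CPM in E+P tdTomato+ luminal cells. GFP+ luminal cells had Esr1 at 93.8, 48.5, 98.5 and 24.5 CPM untreated and 14.9, 13.4 and 12.3 CPM after E+P. The same 2 untreated mice, 1 and 3, thus had the higher Prlr and the higher Esr1. The quotient of Prlr CPM over Esr1 CPM lay between 5.69 and 13.7 in the 14 luminal libraries, and the range after E+P (8.56 to 12.9) fell inside the untreated range. Pgr, the progesterone receptor gene, had 331, 691, 617 and 302 CPM in untreated and 509, 725 and 727 CPM in E+P tdTomato+ luminal cells. In those cells it was therefore not lower where Prlr was. In GFP+ luminal cells its mean was lower after E+P, as that of Prlr was, at 4.80 against 12.0 CPM per kilobase of annotated exons. The ranges there overlapped, with 2.62 to 7.30 after E+P and 2.40 to 30.1 untreated. The quotient of Prlr over Pgr was 4.73 to 8.96 in the 8 untreated and 1.89 to 4.69 in the 6 E+P luminal libraries, without overlap. The nearest values, 4.73 and 4.69, were from GFP+ libraries. Against Krt8, a keratin of all luminal cells, the quotient ran from 0.0703 to 1.93, so Prlr did not keep pace with that gene. The part of the share of hormone-sensing cells in the Prlr values was not tested.

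**Figure D2:**
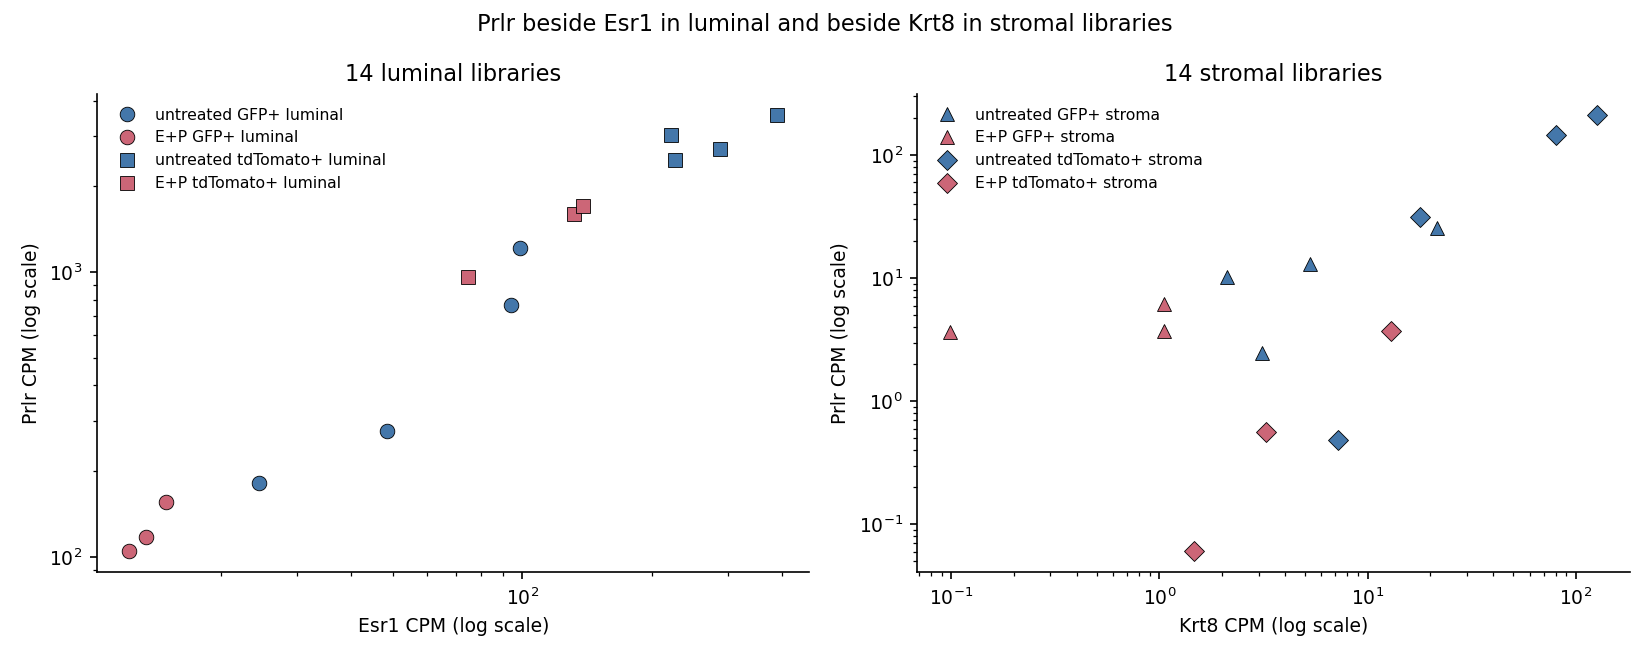
Prlr CPM against Esr1 CPM in the 14 luminal libraries (left) and against Krt8 CPM in the 14 stromal libraries (right), both axes logarithmic, 1 point per library, with shape for the sorted population and colour for treatment. In the luminal libraries low Esr1 went with low Prlr in both treatments, and in tdTomato+ stroma the 2 libraries with the most Krt8 (80.2 and 127 CPM) had the most Prlr (146 and 211 CPM).

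In stroma Prlr was low and uneven. Untreated tdTomato+ stroma had 31.3, 146, 211 and 0.486 CPM, the last from 5 counts, and after E+P it had 0.561, 3.75 and 0.0612 CPM, the last from 1 count. GFP+ stroma had 10.1, 25.7, 13.2 and 2.48 CPM untreated and 6.17, 3.75 and 3.64 CPM after E+P. The treatments overlapped in both stromal populations. The log2 fold change of -6.00 ± 1.64 in tdTomato+ stroma did not pass (adjusted p = 0.112), although DESeq2 called it (7.38e-04, with a range of 1.98e-94 to 0.478 over the alternatives), and became -3.42 (adjusted p = 0.226) without the tdTomato+ stroma of untreated mice 2 and 3.

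Krt8 in the same tdTomato+ stroma libraries was 17.9, 80.2, 127 and 7.19 CPM untreated and 3.27, 12.9 and 1.47 CPM after E+P, and the 7 luminal markers summed to 18.0 to 447 CPM untreated and 2.88 to 33.9 CPM after E+P. In untreated mice 1, 2 and 3 the quotient of Prlr over Krt8 was 1.76, 1.81 and 1.66, inside the 1.40 to 1.93 found in untreated tdTomato+ luminal cells. It was 0.0676 in untreated mouse 4, and 0.172, 0.291 and 0.0417 after E+P, all below the 0.420 to 0.818 of E+P tdTomato+ luminal cells. In GFP+ stroma the quotient was 4.79, 1.19, 2.48 and 0.794 untreated and 5.85, 3.55 and 37 after E+P. GFP+ luminal cells had 0.106 to 0.784 untreated and 0.0703 to 0.119 after E+P, all below GFP+ stroma of the same treatment. Krt8 in GFP+ stroma after E+P was a small divisor, at 0.0503 to 0.539 CPM per kilobase of exons. The part of luminal RNA in these stromal values was not tested. The E+P change of Prlr in GFP+ stroma was -1.53 ± 1.35 (adjusted p = 0.931).

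The receptor counts are sums over all Prlr transcripts on chromosome 15 (GRCm38, 10177238 to 10349180, plus strand), so long and short receptor forms were not separated. Prl itself, the ligand gene, had 0 counts in every library.

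Jak2, the kinase that the receptor carries, passed as higher after E+P in 1 population. In tdTomato+ luminal cells it went from 174, 238, 264 and 164 CPM to 557, 525 and 644 CPM, a 2.79-fold rise (log2 fold change 1.48 ± 0.23, adjusted p = 5.08e-04). The lowest E+P library stood well above the highest untreated one. In GFP+ luminal cells the values were 85.5, 73.2, 132 and 70.7 CPM untreated and 129, 83.7 and 103 CPM after E+P, which overlapped (log2 fold change 0.22 ± 0.23, adjusted p = 0.575).

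The difference between these 2 changes, -1.27 ± 0.32 on the log2 scale, had an adjusted p of 0.0342 and so missed the threshold. With the mouse as a block it passed (adjusted p = 0.00524), as it did with DESeq2 (0.00404), and the range over all alternatives was 0.00404 to 0.174. In this comparison none of the 8 genes passed the edgeR test (2 had an unadjusted p under 0.05), and edgeR called 2.27% of all genes. DESeq2 called 2 of the 8, and 6.52% of all genes.

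Jak2 was 3.63-fold lower in GFP+ than in tdTomato+ luminal cells (log2 fold change -1.86 ± 0.17, adjusted p = 2.81e-06), lower in 7 of 7 mice. Stroma had 195 to 285 CPM in GFP+ and 102 to 237 CPM in tdTomato+ libraries over both treatments. In the order of group means, tdTomato+ luminal cells after E+P came first (575 CPM) and stood apart from all other groups. GFP+ stroma untreated and after E+P (247 and 245), untreated tdTomato+ luminal cells (210), tdTomato+ stroma after E+P (203) and untreated (163) followed, each overlapping its neighbours, and the GFP+ luminal groups came last (105 after E+P and 90.2 untreated).

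The STAT5 genes rose with E+P in both luminal subsets. Stat5a in GFP+ luminal cells was 61.2, 59.9, 94.9 and 83.4 CPM untreated and 253, 292 and 240 CPM after E+P. In tdTomato+ luminal cells it was 108, 110.6, 138.1 and 111.05 CPM untreated and 278, 367 and 424 CPM after E+P. No untreated luminal library reached the lowest E+P one. The rise was 3.49-fold in GFP+ cells (log2 fold change 1.80 ± 0.17, adjusted p = 8.42e-05) and 3.10-fold in tdTomato+ cells (1.63 ± 0.17, adjusted p = 2.33e-05), and it passed under all 15 alternatives in each.

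Stat5b rose less. In GFP+ luminal cells it was 82.0, 102, 93.1 and 83.9 CPM untreated and 134, 147 and 145 CPM after E+P. In tdTomato+ luminal cells it was 80.4, 95.5, 97.4 and 92.9 CPM untreated and 126, 143 and 150 CPM after E+P. These groups did not overlap either. The rise was 1.57-fold in GFP+ cells (log2 fold change 0.65 ± 0.10, adjusted p = 0.00129) and 1.55-fold in tdTomato+ cells (0.64 ± 0.10, adjusted p = 5.14e-04). The call in GFP+ cells was lost without E+P mouse 2 (adjusted p = 0.0147, between 4.09e-07 and 0.0147 over the alternatives).

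Stat5a and Stat5b were the 2 of the 8 genes called in GFP+ luminal cells after E+P, both higher and none lower. There 5.96% of all genes were called in either direction (525 higher and 460 lower). With Jak2 and Socs2, these STAT5 genes made up the 4 called in tdTomato+ luminal cells, all higher. There 14.1% of all genes were called in either direction (1262 higher and 1065 lower). DESeq2 called 4 in GFP+ luminal cells, adding Prlr and Socs3, where it called 13.1% of all genes. The median log2 fold change of the 8 genes was 0.11 in GFP+ and 0.69 in tdTomato+ luminal cells, beside -0.03 and -0.05 over all genes.

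**Figure D3:**
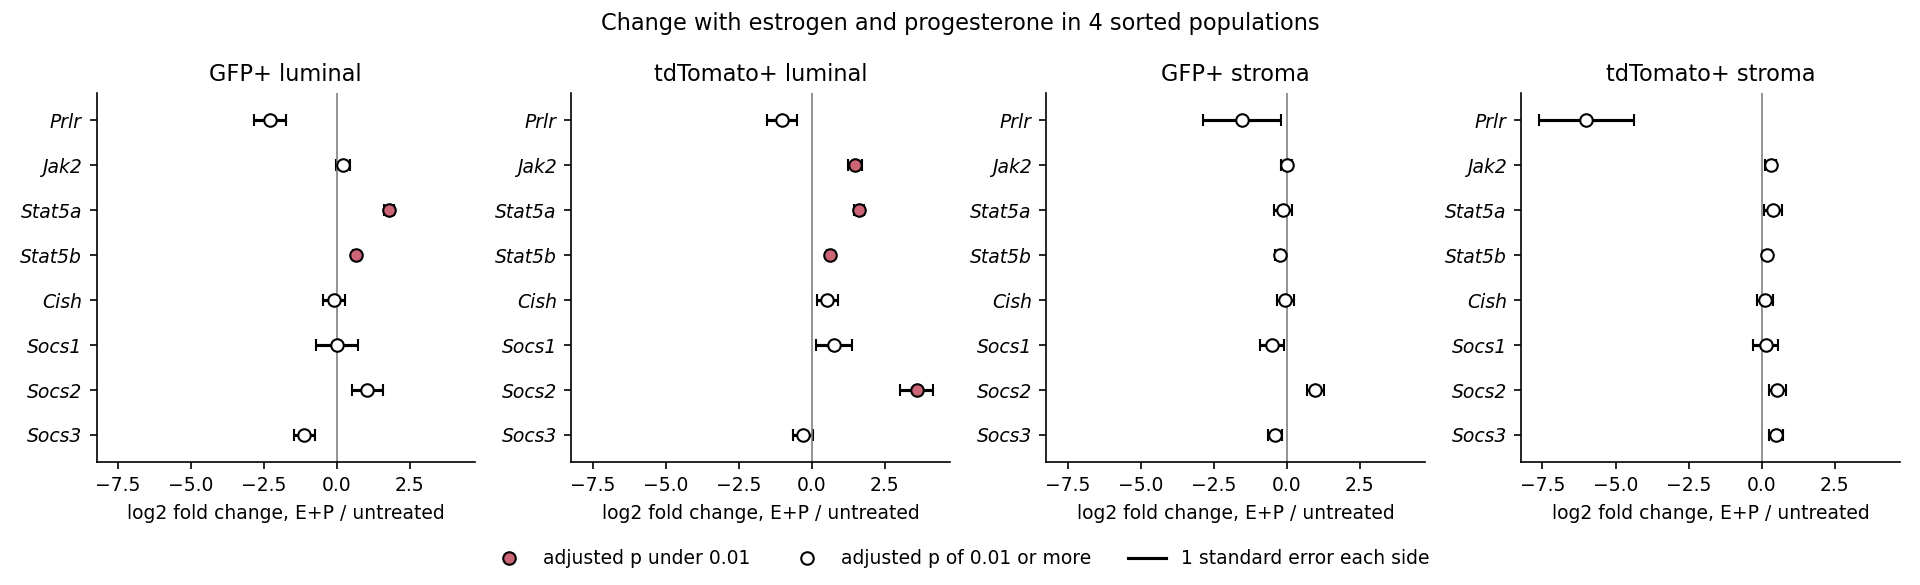
Log2 fold change of E+P over untreated for the 8 genes in each sorted population on a common axis, with bars of 1 standard error each side and red points for adjusted p under 0.01 (edgeR). Red points are Stat5a and Stat5b in GFP+ luminal cells and Jak2, Stat5a, Stat5b and Socs2 in tdTomato+ luminal cells, and there is none in stroma.

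In stroma neither gene passed. Stat5a was 45.0, 88.0, 85.7 and 60.9 CPM untreated and 70.0, 66.1 and 54.7 CPM after E+P in GFP+ stroma, and 48.2, 122, 73.7 and 119 CPM against 142, 98.6 and 115 CPM in tdTomato+ stroma. The log2 fold changes were -0.13 ± 0.30 and 0.39 ± 0.30. Stat5b ranged from 74.5 to 110 CPM in GFP+ and from 92.8 to 139 CPM in tdTomato+ stroma, with changes of -0.24 ± 0.15 and 0.18 ± 0.15. The treatments overlapped for both genes in both populations. By group means of Stat5a, the E+P luminal groups came first (356 and 262 CPM) and overlapped each other but no other group, and the remaining 6 groups, from 63.6 to 119 CPM, overlapped their neighbours.

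None of the 8 genes was called after E+P in GFP+ stroma, where 0.231% of all genes were called, or in tdTomato+ stroma, where 0.124% were. At an unadjusted p under 0.05 there was 1 in each, Socs2 in GFP+ and Prlr in tdTomato+ stroma. DESeq2 called 0 and 1, where it called 1.12% and 2.2% of all genes. The E+P change in GFP+ stroma minus that in tdTomato+ stroma was called by edgeR for 0 of the 8 and 0.0450% of all genes (2 of the 8 had an unadjusted p under 0.05, Prlr and Socs3, and DESeq2 called 0).

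The luminal and stromal responses of the STAT5 genes were compared directly. In GFP+ cells the luminal change exceeded the stromal one by 1.94 ± 0.37 on the log2 scale for Stat5a (adjusted p = 0.00500) and by 0.90 ± 0.18 for Stat5b (adjusted p = 0.00662). These 2 were the genes called of the 8, against 0.920% of all genes. Both calls were lost without any 1 of the 3 E+P mice (adjusted p between 0.0308 and 0.0608), Stat5a also without untreated mouse 2 (0.0193), and Stat5b without untreated mouse 1, 3 or 4 (0.0124, 0.0226 and 0.0160). In tdTomato+ cells the excess was 1.22 ± 0.36 for Stat5a (adjusted p = 0.0321) and 0.43 ± 0.18 for Stat5b (adjusted p = 0.128).

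Over both treatments and subsets, Stat5a was 2.03-fold higher in luminal cells than in stroma (log2 fold change 1.02 ± 0.13, adjusted p = 1.50e-07), while Stat5b had a log2 fold change of 0.16 ± 0.06 (adjusted p = 0.0287, and 0.00325 with the mouse as a block). Stat5a was higher in the luminal library in 6 of 7 mice for GFP+ and 5 of 7 for tdTomato+ cells. In untreated mice alone its means were 74.8 CPM in luminal cells and 69.9 in stroma for GFP+, and 117 and 90.7 CPM for tdTomato+ cells, with overlap in both. GFP+ luminal cells had less Stat5a than tdTomato+ luminal cells in 7 of 7 mice (log2 fold change -0.57 ± 0.12, adjusted p = 0.00152). That call was lost without E+P mouse 3 (-0.44, adjusted p = 0.0236). It was also lost with library size as the only scaling (-0.43, adjusted p = 0.0110). Stat5b had group means in GFP+ and tdTomato+ luminal cells of 90.3 and 91.5 CPM untreated and 142 and 140 CPM after E+P.

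In stroma Stat5b was lower in GFP+ than in tdTomato+ cells (log2 fold change -0.42 ± 0.10, adjusted p = 0.00233), in 6 of 7 mice, and was the 1 gene of the 8 called there, against 42.0% of all genes. Without any 1 of the E+P mice 1, 2 and 3 its adjusted p was 0.0148, 0.0101 and 0.0154, and without the tdTomato+ stroma of untreated mice 2 and 3 it was 0.0105. With the mouse as a block 3 genes passed: Stat5b (adjusted p = 0.00117), Stat5a (0.00172, and -0.66 ± 0.22 with 0.0193 unblocked) and Jak2 (0.00266, and 0.42 ± 0.14 with 0.0156 unblocked).

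Set per kilobase of annotated exons, the balance of the paralogues differed between treatments. Stat5a over Stat5b was 0.580, 0.455, 0.791 and 0.772 in untreated GFP+ luminal libraries and 1.47, 1.54 and 1.29 after E+P. In tdTomato+ luminal libraries it was 1.04, 0.899, 1.10 and 0.928 untreated and 1.72, 2.00 and 2.19 after E+P. In stroma it stayed between 0.403 and 0.992 in all 14 libraries. Stat5b was thus the more abundant form per length in untreated GFP+ luminal cells and in stroma, and Stat5a the more abundant in all 6 E+P luminal libraries. The values divide by the union of all annotated exons (7.13 kb for Stat5a, 5.54 kb for Stat5b), which includes exons that these cells may not use.

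**Figure D4:**
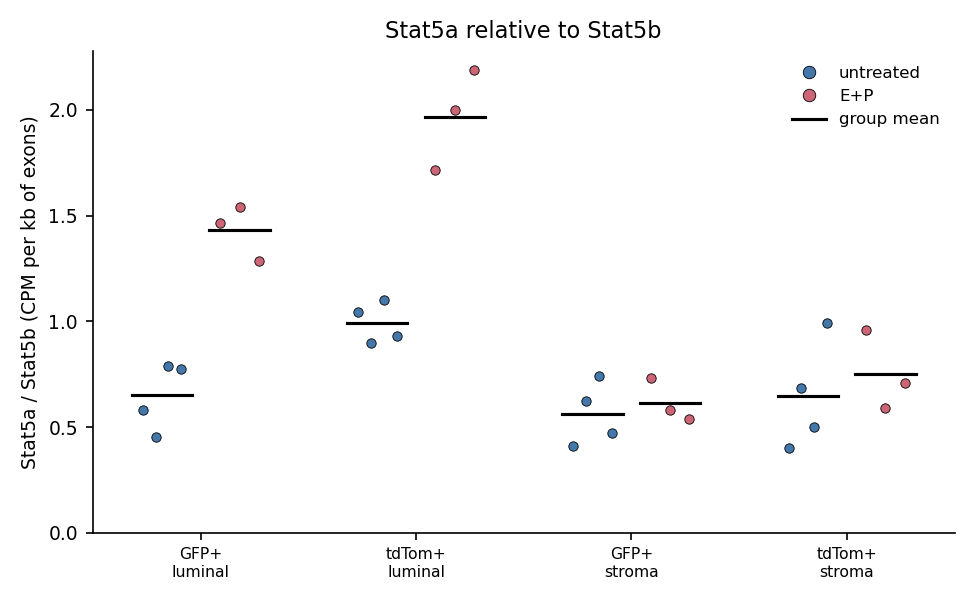
Quotient of Stat5a over Stat5b, each as CPM per kilobase of exons, on a linear axis from 0, with 1 point per library and a line at the group mean. The E+P luminal libraries sit between 1.29 and 2.19, above all untreated luminal libraries (0.455 to 1.10) and all stromal libraries (0.403 to 0.992).

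Of the inhibitor genes, Socs2 alone passed after E+P. Socs2, which restrains growth hormone and prolactin signalling, had the largest hormone response of the 8 genes in tdTomato+ luminal cells. It went from 6.66, 10.6, 11.4 and 39.2 CPM to 265, 159 and 180 CPM, a 12.0-fold rise (log2 fold change 3.59 ± 0.55, adjusted p = 7.03e-04). The rise passed in all 15 alternatives and was between 3.32 and 4.43 on the log2 scale. Socs2 in GFP+ luminal cells was 12.9, 24.0, 13.8 and 15.4 CPM untreated and 54.8, 22.3 and 24.7 CPM after E+P, which overlapped (log2 fold change 1.04 ± 0.53, adjusted p = 0.218).

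The 2 luminal changes of Socs2 differed by -2.55 ± 0.76 (adjusted p = 0.0676), and by -3.42 (adjusted p = 0.00730) without untreated mouse 4, whose tdTomato+ library held the 39.2 CPM. Over the alternatives that adjusted p ran from 0.00352 to 0.217. Against stroma, the tdTomato+ luminal change was larger by 3.02 ± 0.65 (adjusted p = 0.00398), and Socs2 was the 1 gene of the 8 called, against 4.65% of all genes. That call was lost without untreated mouse 2 or 3 (adjusted p = 0.0184 and 0.0167), without any 1 of the 3 E+P mice (0.0260 to 0.0295), and without the tdTomato+ stroma of untreated mice 2 and 3 (0.0206). With the mouse as a block 2 genes passed, Socs2 (adjusted p = 8.75e-04) and Jak2 (0.00709, and 1.14 ± 0.31 with 0.0204 unblocked). Prlr had a difference of 4.96 ± 1.49 there (adjusted p = 0.0346), made up of -1.02 in luminal cells and -6.00 in stroma.

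Stromal Socs2 was 10.4 to 25.5 CPM untreated and 33.0 to 47.6 CPM after E+P in GFP+ stroma, where the groups did not overlap but the change of 0.98 ± 0.29 did not pass (adjusted p = 0.186). In tdTomato+ stroma it was 17.7 to 41.2 CPM and 39.6 to 45.8 CPM. Between luminal subsets the log2 fold change of Socs2 was -1.34 ± 0.38 (adjusted p = 0.0118), with 3 of 7 mice higher in GFP+ cells. By group means Socs2 was highest in tdTomato+ luminal cells after E+P (201 CPM), apart from the rest, and the other 7 groups lay between 16.5 and 42.5 CPM.

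The beta-casein gene Csn2, a milk protein gene driven by STAT5 in lactation, singled out particular mice. It was 18.0 CPM in the tdTomato+ luminal library of untreated mouse 4 and at most 0.0516 CPM in those of untreated mice 1 to 3. After E+P it was 17.5 CPM in mouse 1 and at most 0.0951 CPM in the others. These were the libraries with the highest Socs2 of their groups, 39.2 and 265 CPM. Csn2 in GFP+ luminal cells was 84.2 CPM in untreated mouse 4, where Cish was also highest (59.4 CPM), and 169 CPM in E+P mouse 1, where Socs2 was highest (54.8 CPM). In the other 5 GFP+ luminal libraries Csn2 was at most 3.08 CPM. Socs2 was not the highest in GFP+ luminal cells of untreated mouse 4 (15.4 CPM, against 24.0 CPM in mouse 2). Nor was Cish in those of E+P mouse 1 (29.8 CPM, against 42.1 CPM in mouse 3). In tdTomato+ luminal cells Cish was the highest of its group in untreated mouse 4 (26.8 CPM) but the lowest in E+P mouse 1 (18.0 CPM). The part of these mice's state in the Socs2 and Cish values was not tested.

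Cish, the gene with 2 STAT palindromes at its start and the one most often read as a STAT5 target, did not pass in either luminal subset. It was 21.5, 36.1, 25.2 and 59.4 CPM in untreated and 29.8, 27.8 and 42.1 CPM in E+P GFP+ luminal cells. In tdTomato+ luminal cells it was 13.4, 10.6, 13.0 and 26.8 CPM untreated and 18.0, 24.9 and 25.2 CPM after E+P. Both pairs of groups overlapped. The log2 fold changes were -0.10 ± 0.36 (95% interval -0.81 to 0.62, adjusted p = 0.897) and 0.53 ± 0.36 (-0.18 to 1.25, adjusted p = 0.305), and the sign of the first turned without untreated mouse 4 (0.27) or E+P mouse 2 (0.03). The second passed with the replicate number as a block (0.88, adjusted p = 0.00830, between 0.00830 and 0.544 over the alternatives).

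In stroma Cish lay between 9.21 and 27.9 CPM in all 14 libraries. All 8 group means were between 16.0 and 35.6 CPM, and the GFP+ luminal groups, the highest, overlapped each other. GFP+ luminal cells after E+P (27.8 to 42.1 CPM) did not overlap the next group, tdTomato+ luminal cells after E+P (18.0 to 25.2 CPM), and the remaining groups overlapped their neighbours. Cish was higher in GFP+ than in tdTomato+ luminal cells in 7 of 7 mice, but the log2 fold change of 0.82 ± 0.26 missed the threshold (adjusted p = 0.0190, between 8.50e-04 and 0.0660 over the alternatives). It passed with the mouse as a block (8.50e-04) and without untreated mouse 4 (0.00100). Between luminal cells and stroma it was 0.38 ± 0.17 (adjusted p = 0.0452).

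Socs3, an inhibitor that answers mainly to STAT3 and gp130 cytokines, was lower after E+P in GFP+ luminal cells without passing. It was 75.6, 63.8, 125 and 53.8 CPM in untreated and 44.9, 35.5 and 31.0 CPM in E+P GFP+ luminal cells. The groups did not overlap, but the log2 fold change of -1.11 ± 0.36 did not pass (adjusted p = 0.0575). In tdTomato+ luminal cells it was 244, 199, 232 and 105 CPM untreated and 103, 148 and 220 CPM after E+P, with overlap (-0.29 ± 0.35, adjusted p = 0.570).

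Socs3 was 3.27-fold lower in GFP+ than in tdTomato+ luminal cells (log2 fold change -1.71 ± 0.25, adjusted p = 1.51e-04), lower in 7 of 7 mice. It was 3.23-fold lower in luminal cells than in stroma (log2 fold change -1.69 ± 0.16, adjusted p = 1.46e-09). Stromal group means were 250 to 409 CPM and luminal ones 37.1 to 195 CPM, and in that order GFP+ luminal cells after E+P, the lowest, did not overlap the group above. Egr1, an immediate early gene, was at 1497 to 3153 CPM in stromal and 118 to 727 CPM in luminal libraries. Of 12 immediate early genes, 1 was higher and 8 were lower in luminal cells than in stroma (median log2 fold change -0.90), where 63.5% of all genes were called. Between GFP+ and tdTomato+ luminal cells 1 was higher and 2 were lower in GFP+ cells (median 0.18), where 34.7% of all genes were called. The part of cell handling in the Socs3 values was not tested.

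Socs1, which blocks interferon and cytokine receptors, was near the counting floor in luminal cells. The luminal libraries held 2 to 39 counts, or 0.201 to 1.67 CPM, and the stromal libraries 34 to 167 counts, or 3.30 to 10.5 CPM. The lineages did not overlap, and Socs1 was 9.84-fold lower in luminal cells (log2 fold change -3.30 ± 0.28, adjusted p = 4.93e-11) and lower in 7 of 7 mice in both subsets. A hormone effect on Socs1 in luminal cells could not be resolved at this depth, since the 95% intervals of the log2 fold change were -1.42 to 1.43 in GFP+ and -0.45 to 1.95 in tdTomato+ cells.

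Per kilobase of exons, the receptor was the most abundant of the 8 in untreated tdTomato+ luminal cells, at 192 ± 30.5 CPM per kb (SD, n = 4), ahead of Socs3 (67.4 ± 21.8) and Jak2 (41.7 ± 9.69). After E+P the same cells had Jak2 at 114 ± 12.2 (n = 3), Prlr at 92.7 ± 26.3 and Socs3 at 54.3 ± 20.5 CPM per kb. Stat5a at 49.9 ± 10.3, Stat5b at 25.2 ± 2.27 and Socs2 at 21.1 ± 5.90 CPM per kb came next. Jak2 and Prlr then overlapped, with ranges of 104 to 128 and 62.6 to 111.2. In GFP+ luminal cells after E+P, Stat5a (36.7 ± 3.83) and Stat5b (25.6 ± 1.27) exceeded Prlr (8.19 ± 1.71). In stroma the order was different, with Socs3 (86.3 to 141 as group means) and Jak2 (32.4 to 49.1) above both STAT5 genes (8.92 to 22.3), and Prlr at 0.0951 to 6.33 CPM per kb.

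The wider pathway was read from 5 lists of genes. After E+P, edgeR called 14.1% of all genes in tdTomato+ and 5.96% in GFP+ luminal cells, in either direction. After E+P in tdTomato+ luminal cells, 2 of 10 tested ligand and class I receptor genes rose and 2 fell (median log2 fold change 0.21, all genes -0.05). Il4ra, the interleukin-4 receptor gene, rose (2.68 ± 0.20, adjusted p = 1.61e-06), as did Il6st, which encodes gp130 (0.57 ± 0.11, 0.00200). Osmr, the oncostatin M receptor gene, fell by 1.67 on the log2 scale (adjusted p = 5.48e-05), and Il11ra1 fell by 0.77 (0.00746). Of the same 10 genes, 2 fell and none rose in GFP+ luminal cells: Osmr by 1.43 (5.82e-04) and Il13ra1 by 1.03 (5.55e-04).

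Of 8 other JAK and STAT genes, 1 rose and 3 fell in tdTomato+ luminal cells (median -0.59, all genes -0.05), where 14.1% of all genes were called. Tyk2 rose (0.60 ± 0.14, adjusted p = 0.00609), and Jak3, Stat6 and Stat3 fell by 1.52, 0.61 and 0.57. In GFP+ luminal cells none of the 8 passed (median -0.51, all genes -0.03), where 5.96% of all genes were called. None of the other STAT genes on the list passed as higher in either subset. Of 14 other negative regulators, 1 rose and 1 fell in tdTomato+ luminal cells (median -0.03, all genes -0.05), near the 14.1% of all genes called. The phosphatase gene Ptpn11 rose (0.41 ± 0.09) and the caveolin gene Cav1 fell by 2.47. None of the 14 passed in GFP+ luminal cells (median -0.14, all genes -0.03).

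Among 15 tested genes known as STAT5 targets or effectors, 3 rose and 1 fell in tdTomato+ luminal cells (median -0.20, all genes -0.05). There 14.1% of all genes were called in either direction. Tnfsf11, which encodes the paracrine signal RANKL, was 0 to 0.877 CPM in untreated and 115 to 141 CPM in E+P libraries. The kinase gene Pim1 (1.36 ± 0.19, adjusted p = 2.39e-04) and Id2 (0.88 ± 0.20, 0.00534) also rose, and the kappa-casein gene Csn3 fell by 2.02 (0.00281). Tnfsf11 is also a direct target of the progesterone receptor. None of the 15 passed in GFP+ luminal cells (median 0.24, all genes -0.03), where 5.96% of all genes were called. Of 12 immediate early genes none passed in either luminal subset (medians 0.35 in tdTomato+ and -0.23 in GFP+ cells). In GFP+ stroma, where 0.231% of all genes were called, the call in the 5 lists was Cav1 (0.89 ± 0.15, adjusted p = 0.00793). In tdTomato+ stroma, where 0.124% of all genes were called, there was none, with list medians between -0.30 and 0.17.

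Between GFP+ and tdTomato+ luminal cells, 1 of 10 ligand and receptor genes was higher and 6 were lower in GFP+ cells (median -0.71, all genes 0.00), where 34.7% of all genes were called in either direction. The lower ones included Lepr (-3.25 ± 0.61), Cntfr (-2.98 ± 0.48) and Lifr (-2.33 ± 0.32), receptor genes for leptin, ciliary neurotrophic factor and leukemia inhibitory factor, and the higher one was Osmr (0.94 ± 0.13). Stat2 was lower (-1.01 ± 0.24) and Stat3 higher (0.53 ± 0.10) among the 8 JAK and STAT genes. Of the 14 negative regulators 3 were higher and 5 lower. Of the 15 targets 5 were higher, among them Csn3 (2.82 ± 0.28), Elf5 (2.69 ± 0.30) and Ccnd1 (1.74 ± 0.24), and 4 were lower, among them Gata3 (-0.73 ± 0.12). Elf5, the regulator of alveolar fate that STAT5 acts with, was therefore higher in the subset that had less Prlr, Jak2 and Stat5a.

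Between luminal cells and stroma, 1 of 13 ligand and receptor genes was higher and 8 were lower in luminal cells (median -1.17, all genes -0.02), where 63.5% of all genes were called in either direction. The lower ones included Csf2rb (-6.88 ± 0.38) and Lepr (-2.70 ± 0.38). Of 17 targets 10 were higher, among them Elf5 (8.42 ± 0.40), Csn3 (7.95 ± 0.47) and Gata3 (7.23 ± 0.33), and 4 were lower, among them Ccnd2 (-9.26 ± 0.32) and Igf1 (-7.85 ± 0.22). Ghr, the growth hormone receptor gene, which also signals through JAK2 and STAT5, was lower in luminal cells (-0.78 ± 0.13, adjusted p = 1.02e-05). GFP+ stroma thus had more of that receptor where it had little Prlr, with Ghr means of 9.90 CPM per kilobase of exons untreated and 8.89 after E+P. In tdTomato+ stroma the Ghr means were 4.85 and 4.67, and its values overlapped those of luminal cells (group means of 3.16 to 4.45).

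Between GFP+ and tdTomato+ stroma, Ghr was higher in GFP+ cells (0.96 ± 0.12, adjusted p = 2.74e-06), whereas the Prlr values of the subsets overlapped. Of 13 ligand and receptor genes, 4 were higher and 5 lower there, where 42.0% of all genes were called in either direction. Of the 15 targets 3 were higher, Igf1 the most (2.60 ± 0.17), and 4 were lower. Igf1 is a target of growth hormone signalling through STAT5 in other tissues.

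The genes most like each of the 8 are given as a description only, as Pearson's r of log2 CPM over libraries that share mice and lineage. Over all 28 libraries Prlr was most like Prom1 (r = 0.962), a hormone-sensing marker, C130021I20Rik (0.957) and Dsp (0.954). Over the 14 luminal libraries it was most like Phyh (0.991), Mtmr7 (0.990) and Lifr (0.990). In the luminal libraries Jak2 was closest to Slc38a10 (0.978), G6pdx (0.977) and Rgs2 (0.976), Stat5a to Gnas (0.968), Tmem132a (0.962) and Atp5o (0.942), and Socs2 to Sh3pxd2a (0.970), Atp1b1 (0.963) and Afap1l1 (0.961). For Cish, Stat5b, Socs3 and Socs1 the highest values there were 0.920 with Fam8a1, 0.950 with Btbd3, 0.969 with Gadd45g and 0.798 with Zfp553.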

How the data were processed

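RNA of sorted mammary cells was sequenced from 28 libraries with a stranded total RNA kit and paired-end reads. The authors deposited raw counts per gene, made from STAR 2.5.2a alignments to GRCm38.p5 per the submitters' processing notes. The GENCODE release, the strand setting of the counting and the RNA integrity of each library are not given in the sources used here. The paper gives RNA integrity only as a range over the samples, which covers the whole scale of that measure. It states that fragmentation time was changed to suit RNA of lower quality. Symbols, exon lengths and positions came from GENCODE M21.

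All genes were fitted together with edgeR 4.0.16 in R 4.3.3 (filterByExpr, TMM scaling, robust quasi-likelihood test, prior count 2), in 1 fit of the luminal libraries, 1 of the stromal libraries and 1 of all libraries. Benjamini-Hochberg adjusted p under 0.01 was called, and the standard error is the log2 fold change divided by the root of F. Comparisons within a fit share libraries and are not independent. DESeq2 1.42.0, limma 3.58.1 (voom), other scalings, no filter, a looser threshold, blocks and leaving out each mouse were alternatives. The fits were tested on simulated data. The precision depended on the total counts per library, from 8623383 to 24583803, and on the spread between mice.

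Titles number the mice, so the subsets of a mouse are paired. Deviations from group means correlated by 0.157 on average between the luminal subsets of a mouse (-0.0605 between mice) and by 0.0496 between stromal subsets (-0.0194). Untreated and E+P mice with the same number are different animals (-0.0149, against 0.00913 for other numbers). In the main fits, which hold no mouse term, p-values measure the spread of libraries within groups. They take the libraries of a mouse as independent, and the pairing was used only where the mouse was a block.

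The 8 genes and all lists were chosen with earlier results of these data known. Named were all 8 genes, the called genes of the 5 lists by effect size, and the 3 most similar genes each (highest group mean of at least 10 CPM). All columns matched a sample, and no library pair was identical.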

Additional observations from a re-analysis of the deposited data

Results flagged for a closer look

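Among 32 groups of 4 libraries tested for a library that stands apart from the rest of its group (Dixon's ratio), 3 held one, where chance gives about 1 in 20. Socs1 was 3.78 CPM in the GFP+ stroma of untreated mouse 1, below the others. Socs2 was 39.2 CPM in the tdTomato+ luminal cells of untreated mouse 4, above the others, and the same library held 18.0 CPM of Csn2. Stat5a was 138.1 CPM in the tdTomato+ luminal cells of untreated mouse 3, above the others.

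The E+P change differed between luminal cells and stroma for 3 genes by edgeR's test of the difference. In GFP+ cells the log2 difference was 1.94 for Stat5a (adjusted p = 0.00500) and 0.90 for Stat5b (adjusted p = 0.00662). In tdTomato+ cells it was 3.02 for Socs2 (adjusted p = 0.00398). The calls of Stat5a, Stat5b and Socs2 held in 10, 8 and 8 of 15 alternatives. Each was lost without any 1 of the 3 E+P mice.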

How the results depend on the processing

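The 4 calls of Stat5a, Stat5b, Jak2 and Socs2 after E+P in tdTomato+ luminal cells, those of Prlr, Jak2 and Socs3 between luminal subsets, and the 4 between luminal cells and stroma held under every alternative run. Of the 8 genes, the number called in GFP+ luminal cells after E+P was 2, and 4 with DESeq2. Without the low-count filter it was 2 in GFP+ stroma and 1 in tdTomato+ stroma (0 with it), where DESeq2 also called 1. Between stromal subsets it was 1, and 3 at adjusted p under 0.05, 2 with DESeq2, 4 without the filter, and 0 without the tdTomato+ stroma of untreated mice 2 and 3, an alternative chosen after seeing the data. For the difference of the luminal E+P changes it was 0, and 1 at 0.05 and 2 with DESeq2. For that of the stromal changes it was 1 without the filter. For luminal against stromal changes it was 2 in GFP+ cells, and 1 with library size only and 1 without the filter. In tdTomato+ cells it was 1, and 4 at 0.05, 3 with DESeq2, 2 with limma-voom, 0 without the filter and 0 without the same stromal libraries. Leaving out 1 mouse gave 1 (without E+P mouse 2) to 3 (without untreated mouse 4, with Prlr added) in GFP+ luminal cells, 0 to 3 between stromal subsets, 0 to 1 for the luminal difference, 0 to 1 (GFP+) and 0 to 2 (tdTomato+) for luminal against stromal changes.

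With the mouse as a replicate block the number was 3 between stromal subsets, 1 for the luminal difference and 2 for tdTomato+ luminal against stromal changes. It also added Cish between luminal subsets and Stat5b between lineages, and changed no other call. The replicate number as a block added Cish in tdTomato+ luminal cells. Cish after E+P in GFP+ luminal cells reversed to 0.27 with that block, to 0.047 with limma-voom, and ranged from -0.28 to 0.27 without 1 mouse. The cause was not tested.

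Over all genes, E+P calls in GFP+ and tdTomato+ luminal cells were 985 and 2327, against 2035 and 3558 with DESeq2, 2475 and 4444 at 0.05, and 560 in GFP+ cells in a fit of the 2 groups. In GFP+ stroma 41 genes became 192 with DESeq2, 126 at 0.05, 100 with limma-voom, 459 without the filter, 187 in a fit of the 2 groups and 62 without the 2 stromal libraries. In tdTomato+ stroma 22 became 384, 143, 8, 840, 0 and 129, and 34 with library size only and 45 with the replicate number as a block. The luminal difference went from 376 to 1014 with DESeq2 and 1089 at 0.05, and the stromal one from 8 to 0.756% of 14676 genes and 43, to 4 with limma-voom, 506 without the filter, 13 with the mouse as a block and 29 without the 2 libraries. Luminal against stromal changes went from 180 to 622 and 648 (GFP+) and from 910 to 1647 and 2087 (tdTomato+). Leaving out 1 mouse lowered most of these counts. GFP+ luminal calls were 464 without untreated mouse 1 and 273, 169 and 356 without E+P mice 1, 2 and 3, and tdTomato+ luminal calls 1306, 1140 and 1140 without those E+P mice. Over all 7 such fits the counts ran from 16 to 46 in GFP+ and 1 to 85 in tdTomato+ stroma, 33 to 314 for the luminal and 1 to 13 for the stromal difference, and 8 to 211 (GFP+) and 353 to 910 (tdTomato+) for luminal against stromal changes. The share of all genes called beside each count of the 8 genes moves with them. In luminal cells, Socs1 counts of 2 to 39 limit any comparison.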
